A study of Mus musculus with 27 samples.

Results

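L1cam, Plxna3, Pdzd4, Fgf13 and Il1rapl1 are 5 X-linked genes with roles in axons or synapses, taken by name from the deposited X chromosome tables. All 5 were listed in both tables, which together hold 276 genes (270 in one, 254 in the other). L1cam encodes a cell adhesion molecule of growing axons, and Plxna3 encodes plexin A3, a receptor for semaphorin guidance cues. Il1rapl1 encodes a transmembrane protein that organises synapses. Fgf13 encodes an intracellular member of the fibroblast growth factor family that binds sodium channels and microtubules. Pdzd4 encodes a PDZ domain protein, a class of proteins that often serve as scaffolds. In X inactivation, the long noncoding RNA Xist coats the X chromosome that transcribes it and silences most genes on that copy. The nuclear protein SPEN binds Xist through its RNA recognition motifs and recruits corepressors through its SPOC domain, and CIZ1 helps to hold Xist at the chromosome in some cells.

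The study isolated chromatin-associated RNA, which is rich in nascent transcripts, from mouse embryonic stem (ES) cells of a 129S X Cast cross and compared allelic ratios with and without induced Xist. In every X-linked line the promoter of Xist on the 129S X was an inducible TetOn promoter, and an array of Bgl stem-loops sat near the Xist 3' end. The growth protocol gives doxycycline at 1.0 to 1.5 µg/mL and mouse fibroblast feeders, whose RNA can be present. Of the 27 samples, 23 libraries in 12 groups carried X values and were used, and 4 libraries with a chromosome 15 Xist transgene were not.

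The parental line (WT) was sampled without doxycycline (0 h), after 3 h and after 24 h, with 2 libraries each. A line labelled SpenKO, for which the series text names SpenRRM, had 2 libraries at 0 h and at 24 h and 1 at 3 h. A line with a mutated SPOC domain (SPOCmut) had 3 libraries at 0 h and 3 at 24 h, from clones C10, C2 and G1. A CIZ1 knockout (CIZ1KO) had 2 libraries at 0 h and 2 at 24 h. WT and CIZ1KO were also sampled as neural precursor cells (NPC) at day 30, with 1 library each, and whether these received doxycycline is not given in the sources used here. Apart from the 3 clones, nothing in the labels says that replicates were separate cultures, so a p-value here covers only the variation among these libraries, and that variation may be technical. Several clones are given for SPOCmut alone, so the line and its genotype cannot be told apart in comparisons between lines.

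Each value is a ratio from 0 to 1 per gene and library, read here as the 129S share of the reads that could be assigned to an allele. This reading rests on Xist itself, which lay between 0.933 and 0.999 in the 23 libraries while the inducible copy is on 129S. Tsix, the antisense gene of Xist, moved from a mean of 0.510 at 0 h to 0.214 at 24 h in WT. The pair overlaps on opposite strands and the strand setting of the counting is not stated, so their reads may be mixed. A lower share after doxycycline means relatively less RNA from the X with induced Xist. Without expression levels, less RNA from 129S cannot be told apart from more RNA from Cast, nor fewer responding cells from a weaker response per cell. The ratios come without read counts, so their depth is unknown. The tables list neither Spen nor Ciz1 and hold no levels, so the targeted genes and markers of the cell types were not analysed here.

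The 3 genes L1cam, Plxna3 and Pdzd4 lie close together. In mm10 coordinates of the deposited table, Pdzd4 spans chrX:73793356-73824969 on the minus strand, L1cam chrX:73853779-73880834 on the minus strand and Plxna3 chrX:74329065-74344689 on the plus strand. In the distances given here and below, the start of a gene is the lower coordinate of its listed interval. On the minus strand, as for Xist, this is the 3' end. The starts of Pdzd4 and L1cam are 60.4 kb apart, and the stretch from Pdzd4 to the end of Plxna3 covers 551 kb. Their starts lie 29.7, 29.6 and 29.1 Mb from that of Xist. Il1rapl1 spans chrX:86747241-88115623 on the minus strand, 16.7 Mb from Xist. Fgf13 is listed at chrX:59062145-59166088 on the minus strand, 44.4 Mb from Xist, with a counted length of 523428 bases that is longer than this interval. GENCODE M21 annotates a wider Fgf13 that ends at 59568071, so it is uncertain which Fgf13 transcripts were counted. GENCODE also extends L1cam to 73896105, past its listed end, where it overlaps Arhgap4 on the same strand and Avpr2 on the opposite strand. On the opposite strand GENCODE places Gm14817 and Gm23615 inside Pdzd4, so reads of Pdzd4 may include theirs. Il1rapl1 overlaps 5 annotated features, of which 1 is on the opposite strand and most are processed pseudogenes, and Mir504 and Gm26351 lie on the same strand inside the listed Fgf13 interval. How reads of such features were counted is not stated.

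The sequences just upstream of the starts of 4 of these genes are printed because Pdzd4 gave another call in SPOCmut cells than L1cam and Plxna3 although the 3 lie in one neighbourhood, and because Il1rapl1 had a ratio unlike the rest. Each run holds the 250 bases before the RefSeq transcription start, 5' to 3' along the gene's own strand, in GRCm38.p6 (mm10). Capitals mark CG, the dinucleotide methylated in mammalian DNA, which reads the same on both strands. The windows are chrX:73824970-73825219 (Pdzd4, minus strand), chrX:73880835-73881084 (L1cam, minus strand), chrX:74328816-74329065 (Plxna3, plus strand) and chrX:88115949-88116198 (Il1rapl1, minus strand).
Pdzd4: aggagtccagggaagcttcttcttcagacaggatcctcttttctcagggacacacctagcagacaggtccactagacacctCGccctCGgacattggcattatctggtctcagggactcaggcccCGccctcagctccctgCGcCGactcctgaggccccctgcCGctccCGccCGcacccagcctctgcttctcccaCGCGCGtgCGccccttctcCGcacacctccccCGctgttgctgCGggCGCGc
L1cam: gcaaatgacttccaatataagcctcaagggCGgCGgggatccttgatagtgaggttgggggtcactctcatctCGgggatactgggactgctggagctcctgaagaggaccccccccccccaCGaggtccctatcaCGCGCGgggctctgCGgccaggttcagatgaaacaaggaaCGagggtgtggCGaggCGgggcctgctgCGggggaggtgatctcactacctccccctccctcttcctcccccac
Plxna3: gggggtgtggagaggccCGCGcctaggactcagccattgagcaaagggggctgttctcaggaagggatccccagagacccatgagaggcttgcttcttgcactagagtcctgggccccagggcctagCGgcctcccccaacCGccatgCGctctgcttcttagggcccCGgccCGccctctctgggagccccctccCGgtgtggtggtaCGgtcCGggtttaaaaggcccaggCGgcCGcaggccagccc
Il1rapl1: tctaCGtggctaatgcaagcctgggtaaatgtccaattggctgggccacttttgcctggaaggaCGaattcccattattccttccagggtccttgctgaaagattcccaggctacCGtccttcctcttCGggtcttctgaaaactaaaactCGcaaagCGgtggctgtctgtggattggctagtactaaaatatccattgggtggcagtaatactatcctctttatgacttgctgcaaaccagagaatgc
The Pdzd4 window held 17 CG, the windows of L1cam and Plxna3 held 12 each, and that of Il1rapl1 held 6. Among all 32851 mouse promoter windows of the same length, 23.5% held at least 17 CG, 33.5% at least 12 and 50.4% at least 6, and 92.1% held at least 1. RefSeq gives Fgf13 4 promoters with 2 to 33 CG and L1cam a further start with 20. No ratio of a single promoter was measured, so these counts are a description only.

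Before doxycycline, 4 of the genes were expressed from both X copies and Il1rapl1 was expressed mostly from 129S. Over the 9 libraries at 0 h, Il1rapl1 ranged from 0.863 to 0.981 with a median of 0.949. Pdzd4 lay slightly towards 129S in each of them, between 0.567 and 0.617 (median 0.593). Fgf13 ranged from 0.466 to 0.559 (median 0.525), Plxna3 from 0.468 to 0.560 (median 0.512) and L1cam from 0.409 to 0.643 (median 0.458). The ranges of Fgf13, Plxna3 and L1cam overlapped broadly, while every Pdzd4 value was above every Fgf13 and Plxna3 value and the L1cam range reached beyond both ends of those 3. L1cam was the noisiest of the 5, with a spread within groups of 0.0880 (SD), rank 255 of 270 genes from the least variable. Pdzd4 had a spread of 0.0138, rank 43, against 0.0278 for the median gene. None of the 5 differed between SpenKO and WT, SPOCmut and WT or CIZ1KO and WT at 0 h by limma with Benjamini-Hochberg adjustment over all genes. In each of these comparisons 0.00% of all genes passed (22, 34 and 16 genes had an unadjusted p under 0.05). Il1rapl1 was 0.0616 ± 0.0243 (SE) higher in SpenKO than in WT with an adjusted p of 0.546, and Fgf13 was 0.0453 ± 0.0198 higher in SPOCmut than in WT with an adjusted p of 0.390.

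**Figure D1:**
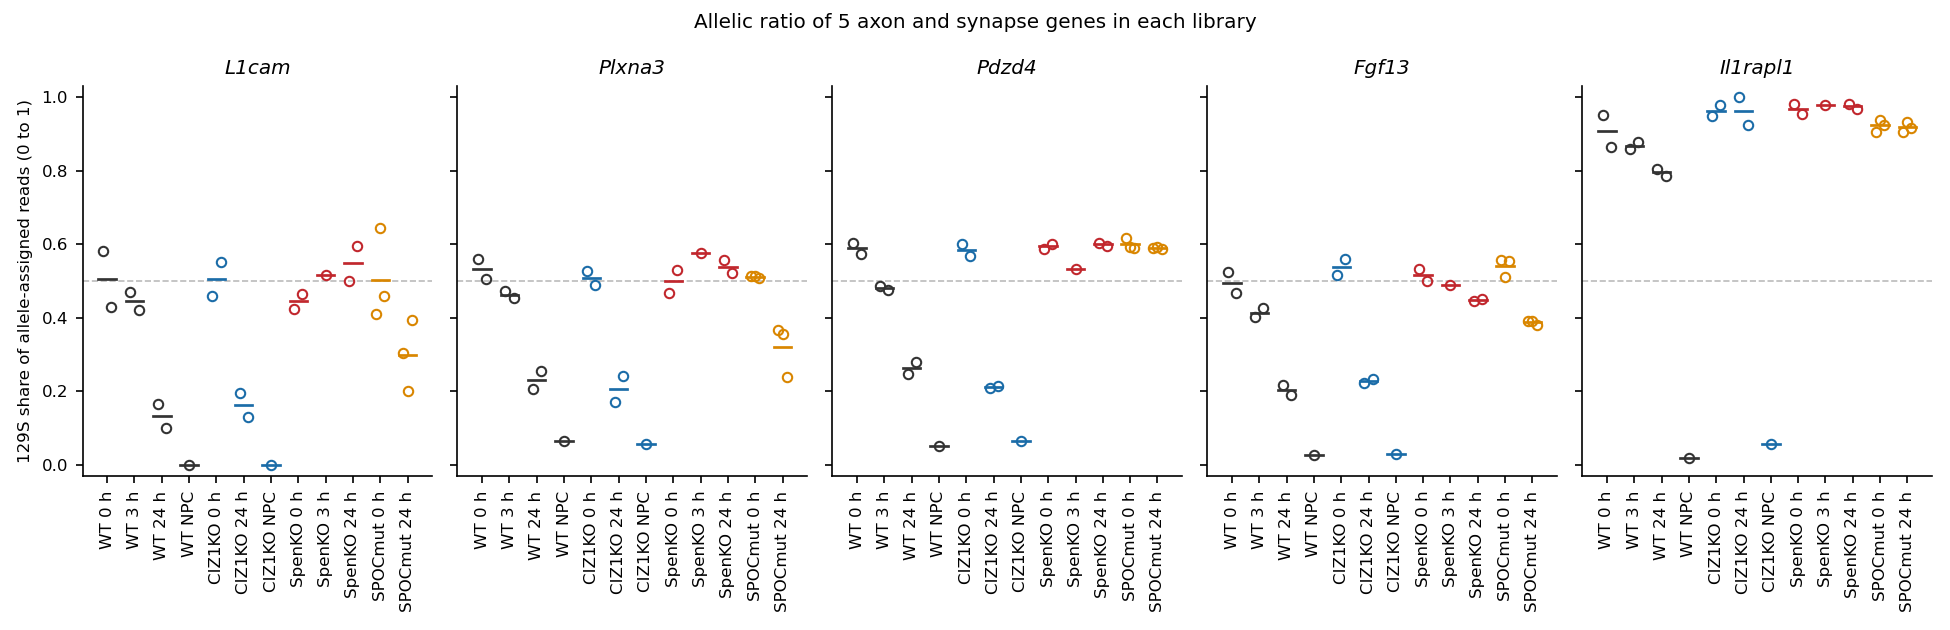
Each point is the 129S share (vertical axis, 0 to 1) of a gene in 1 library, with a bar at the group mean, for the 12 groups of lines and times along the horizontal axis. Pdzd4 sits between 0.588 and 0.617 in the 6 SPOCmut libraries, while Fgf13 lies between 0.380 and 0.392 at 24 h there, and Il1rapl1 is at 0.786 or above in ES cells and at 0.0556 or below in NPC.

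After 24 h of Xist induction in WT cells, all 5 genes fell, and the 4 with balanced expression lost more of their 129S share than the median X gene. L1cam read 0.581 and 0.429 at 0 h and 0.167 and 0.100 at 24 h. Both induced libraries were far below both uninduced ones. Here and below, overlap between groups was examined for these 5 genes only. How many of all genes separate in this way was not counted. The fall was 0.372 ± 0.0816 (SE, adjusted p = 0.00135), rank 5 of 270 genes, and corresponds to 15.4 reads from 129S for every 100 from Cast at 24 h. Pdzd4 read 0.604 and 0.573 at 0 h and 0.246 and 0.280 at 24 h. It fell by 0.326 ± 0.0149 (adjusted p = 1.51e-08), and the groups did not overlap. Plxna3 read 0.560 and 0.504 at 0 h and 0.207 and 0.256 at 24 h, a fall of 0.301 ± 0.0391 (adjusted p = 2.76e-05). Fgf13 read 0.525 and 0.466 and then 0.218 and 0.190, a fall of 0.291 ± 0.0216 (adjusted p = 3.50e-07). These 3 genes ended with a similar 129S share, between 0.190 and 0.280 in the 6 values.

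Il1rapl1 fell least. It read 0.950 and 0.863 at 0 h and 0.806 and 0.786 at 24 h, so the induced libraries were lower but still mostly 129S. The fall was 0.111 ± 0.0243 (adjusted p = 0.00132), rank 223 of 270. It was 0.0674 without the first 0 h library (adjusted p = 0.00919), and it did not pass when the WT libraries at 0 h and 24 h were fitted alone (adjusted p = 0.0530). Of all 270 genes, 88.9% fell in this comparison, with a median change of -0.197, so that all 5 falling is near the background.

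At 3 h the changes were small, and Pdzd4 and Fgf13 were the 2 of the 5 that passed (17.0% of all genes fell). Pdzd4 read 0.487 and 0.474, below both 0 h libraries, and fell by 0.108 ± 0.0149 (adjusted p = 0.000553). Fgf13 read 0.403 and 0.425, also below both, and fell by 0.0814 ± 0.0216 (adjusted p = 0.0185). These were 33.1% and 27.9% of their changes at 24 h, where the median over the 235 genes with a 24 h fall above 0.1 was 12.3%. The shares of the genes that did not pass were also above this median, at 34.6% for Il1rapl1, 23.1% for Plxna3 and 16.2% for L1cam. Plxna3 read 0.472 and 0.453 (difference -0.0695 ± 0.0391, adjusted p = 0.245). L1cam read 0.469 and 0.421, overlapping its 0 h values (difference -0.0601 ± 0.0816, adjusted p = 0.675). Il1rapl1 read 0.858 and 0.878, which also overlapped (difference -0.0383 ± 0.0243, adjusted p = 0.3004). The Fgf13 call was lost without the first 0 h library (-0.0523, adjusted p = 0.177) or the first 3 h library (-0.0704, adjusted p = 0.112), and Il1rapl1 passed without the second 0 h library (-0.0818, adjusted p = 0.0179). Fitted on the WT libraries at 0 h and 3 h alone, neither Pdzd4 nor Fgf13 passed (adjusted p = 0.0691 and 0.182). From 3 h to 24 h all 5 genes fell, against 85.6% of all genes lower, 0.370% higher and 85.9% either way, by 0.312 for L1cam, 0.231 for Plxna3, 0.218 for Pdzd4, 0.210 for Fgf13 and 0.0725 for Il1rapl1 (adjusted p = 0.0161). The Il1rapl1 call between 3 h and 24 h was lost without the second 3 h library or the second 24 h library (adjusted p = 0.0821 and 0.0819), on the log2 odds scale (adjusted p = 0.197) and under Benjamini-Yekutieli adjustment (adjusted p = 0.0994).

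In SpenKO none of the 5 genes passed between 0 h and 24 h, in a comparison where 0.741% of all genes fell and 0.00% rose. Pdzd4 read 0.588 and 0.601 at 0 h, 0.534 at 3 h and 0.603 and 0.596 at 24 h. Its 0 h and 24 h values overlapped, and the difference was 0.00488 with a 95% interval from -0.0280 to 0.0378. Plxna3 read 0.468 and 0.530, then 0.577 at 3 h, then 0.556 and 0.522, again overlapping (difference 0.0400 ± 0.0391). L1cam read 0.425 and 0.465 at 0 h, 0.517 at 3 h and 0.500 and 0.596 at 24 h. Here both 24 h values were above both 0 h values, and the difference of 0.103 ± 0.0816 was the highest of the 270 genes, with an adjusted p of 0.831.

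Il1rapl1 stayed at 0.955 or above in the 5 SpenKO libraries, reading 0.981 and 0.955, then 0.980, then 0.982 and 0.968 (difference 0.00665 ± 0.0243). Fgf13 had both 24 h values below both 0 h values, and how many of all genes share this was not counted. It read 0.533 and 0.501 at 0 h, 0.488 at 3 h and 0.445 and 0.451 at 24 h, a difference of -0.0687 ± 0.0216 (unadjusted p = 0.00933, adjusted p = 0.247). The size of that difference is 23.6% of the WT fall. The SpenKO library at 3 h has no replicate, so no test was made of it.

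The test of the difference between the responses of SpenKO and WT passed for each of the 5 genes, as it did for 76.7% of all genes. The SpenKO change was less negative than that of WT by 0.474 ± 0.115 for L1cam (rank 269 of 270 from the lowest), 0.341 ± 0.0553 for Plxna3 and 0.331 ± 0.0210 for Pdzd4. For Fgf13 the gap was 0.223 ± 0.0306 and for Il1rapl1 it was 0.118 ± 0.0343 (adjusted p = 0.00926). Without the first WT library at 0 h the Il1rapl1 gap was 0.0740 (adjusted p = 0.0231), and on the log2 odds scale it did not pass (adjusted p = 0.0513).

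In SPOCmut the calls were not the same for all 5 genes. L1cam, Plxna3 and Fgf13 fell at 24 h, while Pdzd4 and Il1rapl1 did not pass and differed by less than 0.01 between the means of the 2 times. In this comparison 49.6% of all genes fell and 0.00% rose, so that 3 of the 5 falling is near the background. Whether the 5 genes differed from each other was not tested.

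Pdzd4 read 0.617, 0.593 and 0.589 at 0 h in clones C10, C2 and G1, and 0.590, 0.591 and 0.588 at 24 h. The 2 times overlapped, and within clones the changes were -0.0266, -0.00136 and -0.000848. The difference was -0.00960 ± 0.0121 (95% interval from -0.0365 to 0.0173, adjusted p = 0.524). The size of this change is 2.95% of the WT fall, where the median over the 235 genes was 36.9%. Genes that rose in SPOCmut have negative shares, and by signed share Pdzd4 ranked 14 of 235 from the lowest. Its response differed from that of WT by 0.316 ± 0.0192 (adjusted p = 5.44e-07), rank 269 of 270 from the lowest, and from that of SpenKO by -0.0145 ± 0.0192 (95% interval from -0.0570 to 0.0280). The other gene near 0, Il1rapl1, read 0.905, 0.939 and 0.925 at 0 h and 0.905, 0.932 and 0.915 at 24 h in the same clone order. No clone moved by more than 0.00951, and the difference was -0.00536 ± 0.0198 (adjusted p = 0.855). Its response differed from that of WT by 0.106 ± 0.0313 (adjusted p = 0.0133), by 0.0620 without the first WT library at 0 h (adjusted p = 0.0466) and without a call on the log2 odds scale (adjusted p = 0.103).

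Plxna3 read 0.513, 0.512 and 0.507 at 0 h and 0.368, 0.355 and 0.239 at 24 h. Its 0 h values were nearly equal and all lay above the 24 h values. The fall was 0.191 ± 0.0319 (adjusted p = 0.000601), which is 63.3% of the WT fall, and it was largest in clone G1, at 0.268. Fgf13 read 0.557, 0.511 and 0.555 and then 0.391, 0.392 and 0.380, without overlap. It fell by 0.153 ± 0.0177 (adjusted p = 3.68e-05), or 52.7% of the WT fall. L1cam read 0.409, 0.643 and 0.458 at 0 h and 0.304, 0.200 and 0.394 at 24 h. The 2 times did not overlap, but the gap between them was 0.0152 and the clones differed widely, with changes of -0.105 in C10, -0.443 in C2 and -0.0644 in G1. No fit left out clone C2 as a whole. The fall was 0.204 ± 0.0666 (adjusted p = 0.0253). It was 0.134 without the C2 library at 0 h and 0.154 without the C2 library at 24 h (adjusted p = 0.0955 and 0.0976), and it was also lost without the C10 library at 24 h (0.206, adjusted p = 0.0549).

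**Figure D2:**
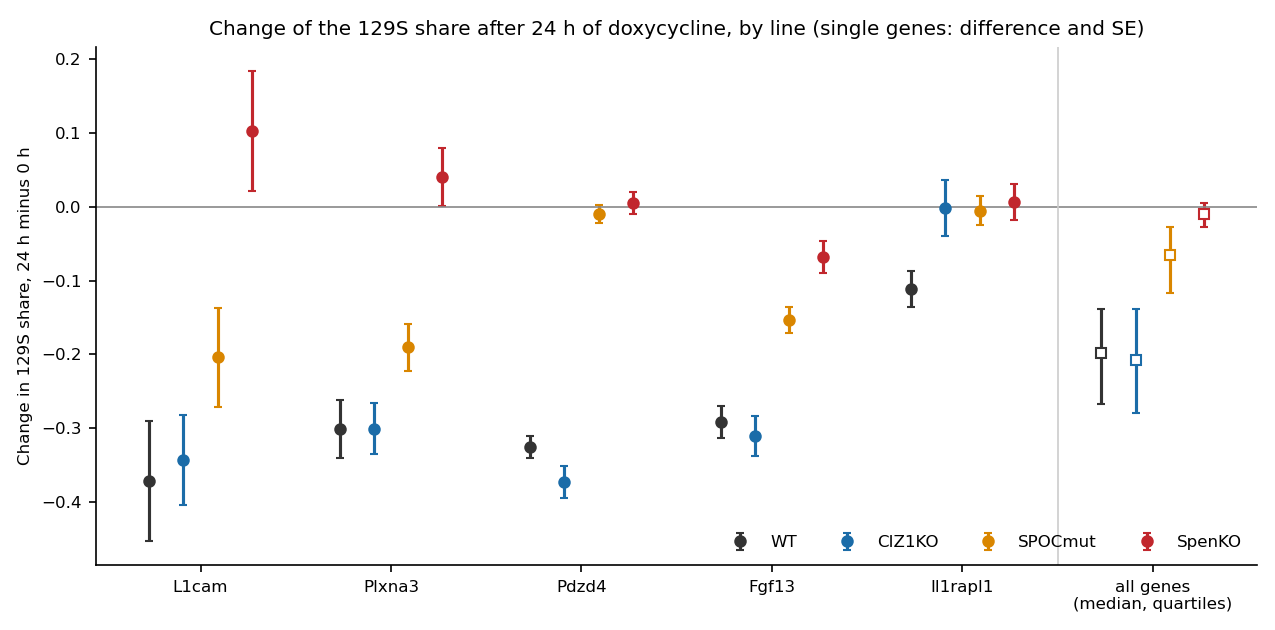
Points give the change in 129S share from 0 h to 24 h (vertical axis) for each gene in WT, CIZ1KO, SPOCmut and SpenKO, with bars of 1 standard error, and open squares give the median and quartiles of all genes. SPOCmut points of L1cam, Plxna3 and Fgf13 sit between those of WT and SpenKO, whereas those of Pdzd4 and Il1rapl1 sit at 0 beside SpenKO.

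Between SPOCmut and WT, the difference of responses passed for 3 of the 5 genes (58.5% of all genes were higher). Besides Pdzd4 and Il1rapl1 this was Fgf13, at 0.138 ± 0.0279 (adjusted p = 0.00172). It did not pass for L1cam (0.168 ± 0.105, adjusted p = 0.191) or Plxna3 (0.110 ± 0.0505, 95% interval from -0.00141 to 0.222, adjusted p = 0.0814). Each of those passed without 1 library, L1cam without the C2 library at 0 h (0.237, adjusted p = 0.0438) and Plxna3 without the G1 library at 24 h (0.151, adjusted p = 0.00432). Between SPOCmut and SpenKO, Plxna3 was the 1 of the 5 genes that passed (23.0% of all genes were lower), with a difference of -0.231 ± 0.0505 (adjusted p = 0.00780). L1cam (-0.307 ± 0.105, adjusted p = 0.0602, rank 2 of 270) and Fgf13 (-0.0848 ± 0.0279, adjusted p = 0.0507) missed the threshold. L1cam passed without the C10 library at 0 h (-0.354, adjusted p = 0.0460) or the G1 library at 24 h (-0.354, adjusted p = 0.0362), and Fgf13 passed without the C2 library at 0 h (-0.10001, adjusted p = 0.0233). All of these comparisons share the SPOCmut, WT or SpenKO libraries, and the difference between one gene's response and another's was not tested.

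**Figure D3:**
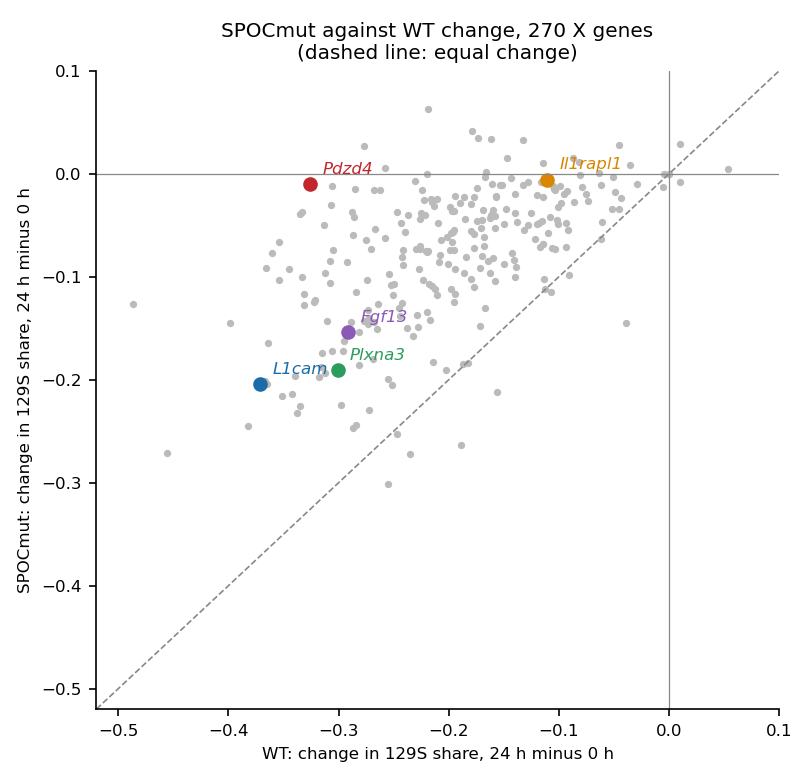
Each point is 1 of 270 genes, with the WT change from 0 h to 24 h on the horizontal axis, the SPOCmut change on the vertical axis and a dashed line where they are equal. Pdzd4 lies far to the left at a SPOCmut change of -0.00960, while L1cam and Plxna3 lie lower, at -0.204 and -0.191.

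The stretch around Pdzd4 held genes with small and with large SPOCmut changes. Of the 17 measured genes from Pdzd4 to Plxna3, all 17 fell in WT (88.9% of all genes), with changes between -0.372 and -0.0485 (median -0.195). In SPOCmut 7 of the 17 fell (49.6% of all genes), L1cam and Plxna3 among them and Pdzd4 not, with changes between -0.224 and 0.0329 (median -0.0355). Ssr4, whose start is 6.33 kb before that of Pdzd4 and which encodes a subunit of the translocon-associated complex, fell by 0.102 ± 0.0411 in WT (adjusted p = 0.0364) and changed by -0.0448 ± 0.0336 in SPOCmut (adjusted p = 0.289). Arhgap4 is a GTPase-activating protein gene whose start is 40.6 kb after that of L1cam. It fell by 0.345 ± 0.0357 in WT and by 0.0921 ± 0.0292 in SPOCmut (adjusted p = 0.0217). Beside Plxna3, Fam50a fell by 0.128 ± 0.0488 in WT (adjusted p = 0.0283) and changed by -0.00784 ± 0.0398 in SPOCmut, while Ubl4 changed by -0.244 ± 0.113 in WT (adjusted p = 0.0597) and by -0.0472 ± 0.0919 in SPOCmut. Neither neighbour of Plxna3 passed in SPOCmut, whereas Plxna3 did, but the difference between these genes was not tested.

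For Fgf13 and Il1rapl1 the nearest measured genes were farther away. Mcf2, a guanine nucleotide exchange factor gene, has its start 994 kb after that of Fgf13. It fell by 0.286 ± 0.0132 in WT and by 0.0418 ± 0.0108 in SPOCmut (adjusted p = 0.00771). Its SPOCmut fall is smaller in size than the 0.153 of Fgf13, a difference that was not tested. Nr0b1, which encodes the nuclear receptor DAX1 and starts 555 kb before Il1rapl1, fell by 0.288 ± 0.0426 in WT and by 0.144 ± 0.0348 in SPOCmut (adjusted p = 0.00538). Pola1, the catalytic subunit gene of DNA polymerase alpha, has its start 6558 kb after that of Il1rapl1. It fell by 0.186 ± 0.00905 in WT and by 0.0223 ± 0.00739 in SPOCmut (adjusted p = 0.0268).

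**Figure D4:**
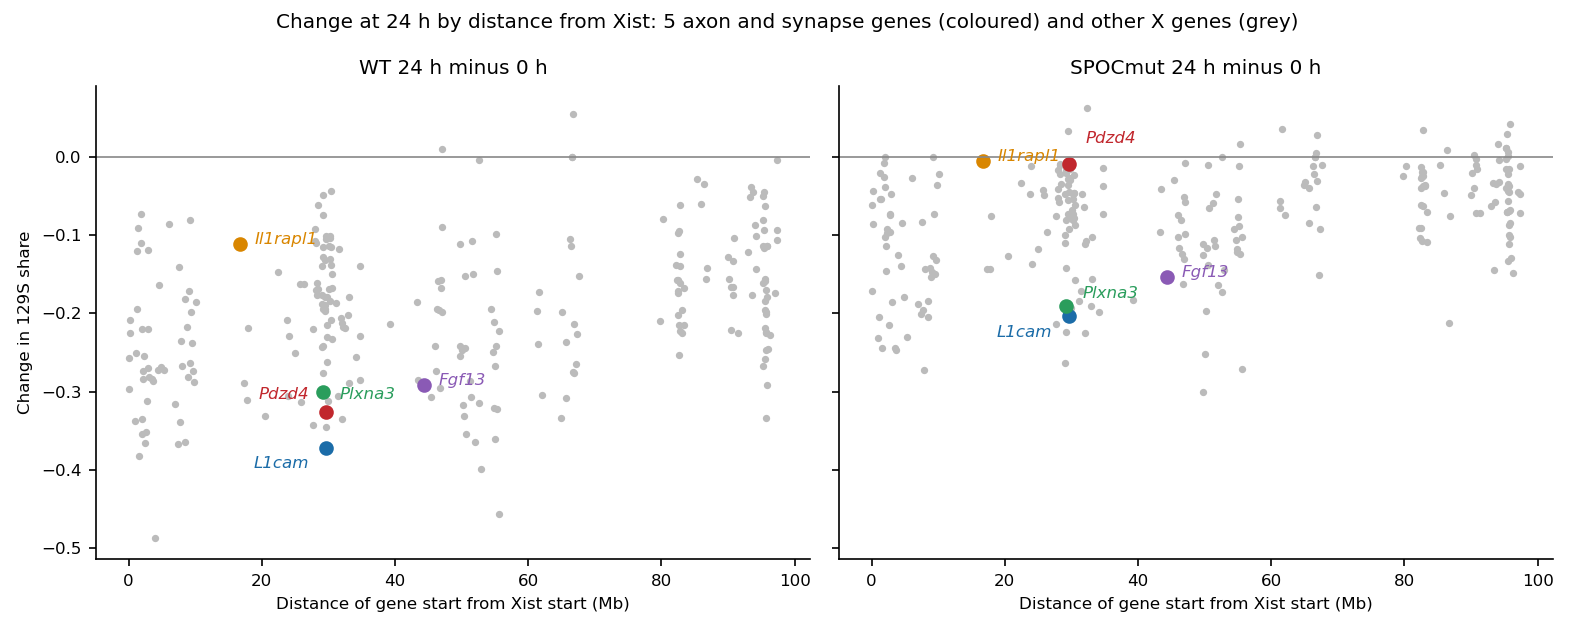
The change in 129S share from 0 h to 24 h (vertical axis) is plotted against the distance of each gene's start from that of Xist in Mb, for WT on the left and SPOCmut on the right, with Xist left out. Pdzd4, L1cam and Plxna3 share a distance of 29.1 to 29.7 Mb, and in SPOCmut Pdzd4 is at -0.00960 while L1cam and Plxna3 are at -0.204 and -0.191.

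In CIZ1KO the 4 balanced genes also fell at 24 h, and Il1rapl1 did not pass (85.0% of all genes fell). Pdzd4 read 0.600 and 0.567 at 0 h and 0.208 and 0.213 at 24 h, a fall of 0.373 ± 0.0217 (adjusted p = 8.80e-05). L1cam read 0.458 and 0.552 and then 0.194 and 0.130, falling by 0.343 ± 0.0607 (adjusted p = 0.00255). The groups did not overlap for either gene. Fgf13 read 0.517 and 0.559 and then 0.222 and 0.234 (a fall of 0.310 ± 0.0267), and Plxna3 read 0.527 and 0.488 and then 0.172 and 0.242 (a fall of 0.301 ± 0.0348), again without overlap. Il1rapl1 read 0.949 and 0.977 at 0 h and 1 and 0.923 at 24 h. Its times overlapped and the difference was -0.00159 ± 0.0381 (adjusted p = 0.968).

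No gene of the table passed for a difference in response between CIZ1KO and WT by limma (0.00% of 254, with 11 genes at an unadjusted p under 0.05). For Plxna3 the difference was 0.000399 ± 0.0492 (95% interval from -0.121 to 0.122), and for Pdzd4 it was -0.0474 ± 0.0307 (95% interval from -0.123 to 0.0283). For Il1rapl1 the response differed by 0.109 ± 0.0538 (95% interval from -0.0234 to 0.242, adjusted p = 0.851), so its pass in WT and not in CIZ1KO is no tested difference. Without the first CIZ1KO library at 0 h 2 genes passed, none of them among the 5.

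In NPC at day 30 the 129S share of all 5 genes was at most 0.0655 in both lines. L1cam was listed at 0 in the WT and in the CIZ1KO library, as were 24 and 25 of the 254 genes, L1cam included. Plxna3 read 0.0649 in WT and 0.0580 in CIZ1KO, Pdzd4 0.0512 and 0.0655, and Fgf13 0.0277 and 0.0299. For comparison the median gene read 0.0546 in WT and 0.0830 in CIZ1KO. Il1rapl1, at 0.0182 and 0.0556, was at 0.806 and 0.786 in WT and at 1 and 0.923 in CIZ1KO in ES cells after 24 h. From 0 h ES cells to NPC it changed by -0.888 in WT and by -0.908 in CIZ1KO, the lowest of 254 genes in both lines, where the median gene changed by -0.428 and -0.418. A fall cannot be larger than the start, so ranks by change depend on it. Il1rapl1 started at 0.907 in WT and 0.963 in CIZ1KO, and the median gene at 0.505 and 0.514. By NPC level Il1rapl1 ranked 62 and 99 of 254 from the lowest. From 0 h to NPC, Pdzd4 changed by -0.537 in WT (rank 18 of 254) and -0.518 in CIZ1KO (rank 40), and L1cam by -0.505 in both. Pdzd4 started at 0.588 and 0.584, also above the median gene, and by NPC level it ranked 122 and 109. With 1 library per line these values have no replicate check, and the cell state and the length of Xist expression cannot be told apart.

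The ES cell groups, without NPC, were put in order by group mean. L1cam was at 0.133 in WT and 0.162 in CIZ1KO at 24 h, then 0.299 in SPOCmut at 24 h. It was at 0.445 to 0.548 in the groups at 0 h, in WT at 3 h and in SpenKO, which overlapped in part. For Plxna3 the order was 0.207 in CIZ1KO, 0.231 in WT and 0.320 in SPOCmut at 24 h, and here the SPOCmut range reached down to 0.239 and overlapped the other two. For Pdzd4 it was 0.211 in CIZ1KO and 0.263 in WT at 24 h without overlap, then 0.480 in WT at 3 h and 0.534 in the single SpenKO library at 3 h, then 0.584 to 0.599 in the rest, including SPOCmut at 24 h. Fgf13 lay at 0.204 in WT and 0.228 in CIZ1KO at 24 h, at 0.387 in SPOCmut at 24 h, at 0.414 in WT at 3 h and at 0.448 in SpenKO at 24 h. No 2 of these 5 small groups overlapped, and how many of all genes share this was not counted. Il1rapl1 had its lowest ES cell mean in WT at 24 h, at 0.796, and its highest in SpenKO at 3 h and 24 h, at 0.980 and 0.975. Apart from the comparisons given above, groups next to each other in these orders were not tested.

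The genes with the most similar values over the 17 libraries of the larger table, by mean absolute difference of the ratio, lay elsewhere on the X. For Pdzd4 these were Nono (0.0262), Wdr45 (0.0321) and Syn1 (0.0372), which start 27.6, 66.1 and 52.9 Mb away. Fgf13 was closest to Amer1 (0.0258), Pdk3 (0.0284) and Rbmx (0.0291), and Plxna3 to Klhl15 (0.0355), Rbmx (0.0373) and Pdk3 (0.0379). L1cam had no gene as near, with Mospd1 at 0.0595, Gspt2 at 0.0603 and Tex11 at 0.0625. Il1rapl1 had the most distant nearest genes of the 5, namely Dynlt3 at 0.0710, Xist at 0.0769 and Efhc2 at 0.0841. Among the 5 genes themselves, Plxna3 and Fgf13 were nearest (0.0533), Plxna3 and Pdzd4 were 0.0965 apart, and Il1rapl1 was 0.375 to 0.497 from the other 4. These distances share libraries and the common effect of doxycycline and are given as a description.

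A wider list of 57 X-linked genes of axons and synapses had 20 further measured members in the table that holds WT, SpenKO and SPOCmut. They include the presynaptic gene Syn1, the postsynaptic scaffold genes Dlg3 and Cask, the receptor subunit genes Gria3 and Gabre, and the adhesion gene Slitrk4. In WT at 24 h all 20 fell (88.9% of all genes did), with a median change of -0.204 beside -0.197 for all genes. The smallest fall was that of Atp6ap2, an accessory protein gene of the proton pump, at 0.103 ± 0.0169. At 3 h 4 of the 20 fell and 3 rose (17.0% and 5.19% of all genes). The lowest was Dmd, the dystrophin gene, at -0.116 ± 0.0124, and the highest was Gabre, a GABA-A receptor subunit gene, at 0.172 ± 0.0266, whereas none of L1cam, Plxna3, Pdzd4, Fgf13 and Il1rapl1 rose.

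In SpenKO 1 of the 20 fell (0.741% of all genes), Gabre by 0.152 ± 0.0266 (adjusted p = 0.0212), and 19 did not pass. No gene passed in SpenKO when the compared groups were fitted alone, under Benjamini-Yekutieli adjustment, with the replicate block, or without the second 0 h library or either 24 h library. In SPOCmut 15 of the 20 fell (49.6% of all genes), with a median of -0.0775 beside -0.0658 for all genes. Atp6ap2, at -0.0158 ± 0.0138, changed least and Zdhhc9, a palmitoyltransferase gene, was highest, at 0.0161 ± 0.0121, and neither passed. The SPOCmut response was above that of WT for 15 of the 20 (58.5% of all genes), most for the AMPA receptor subunit gene Gria3, at 0.231 ± 0.0623, and least for Gabre, at 0.00264 ± 0.0343. The Pdzd4 difference of 0.316 was above all 20 of them. In CIZ1KO 20 of 21 list genes outside the 5 fell (85.0% of all genes), and the changes of the 21 ran from Dmd at -0.330 ± 0.0168 to Fmr1, an RNA-binding protein gene of synapses, at -0.0996 ± 0.0201.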

How the data were processed

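Chromatin-associated RNA was sequenced from stranded total RNA libraries, per the labels' protocols. Per the submitters' processing notes, the tools include the aligners STAR 2.4.2a and Bowtie2 2.3.2 as well as edgeR, bedtools, featureCounts and SAMtools, none with a stated role, and mm10 was the genome. What the authors deposited is the allelic ratio of each gene in each library, a fraction between 0 and 1, in an X table of 270 genes in 17 libraries and one of 254 genes in 10 libraries, which share 248 genes and 4 WT libraries. No source used here gives the allele of the numerator, the gene filters or the read depth, so no interval from counting error could be made. Columns named for doxycycline without a time were taken as 24 h, per the labels.

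Ratios were fitted without transformation in limma 3.58.1 (R 4.3.3), with moderated variances, all libraries of a table fitted together and no term for the replicate number. P-values were adjusted by Benjamini-Hochberg over all genes of the table, and an adjusted p under 0.05 counts as a call. Groups of 1 library entered the fit without adding to the spread and were described by value. Tables were tested separately. The code was tested on simulated data. Differences of response are the 24 h change of one line minus that of another. WT libraries serve as controls in several comparisons, which are therefore not independent.

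The genes and the axon and synapse list were chosen with earlier results of these data known. Named besides the 5 genes were, for each, the 3 genes with the smallest mean absolute difference over 17 libraries and the nearest measured gene on either side, then Xist and Tsix, and from the list the genes with the largest fall and the smallest change, with the highest value given beside them. Some genes that this rule names are not reported here. The promoter sequences came from RefSeq (GRCm38.p6), where all 5 genes matched by symbol, and overlaps from GENCODE M21.

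Replicates of the SPOCmut groups pair by clone, per the labels. The deviations of same-clone libraries from their group means correlated at -0.113 to 0.148 over genes. The numbers in the other lines are not said to mark a shared culture, and the correlations there ran from -0.107 to 0.161. Alternatives were a fit of the compared groups alone, log2 odds (ratios held from 0.01 to 0.99), trended robust moderation, Benjamini-Yekutieli adjustment, genes between 0.2 and 0.8 without doxycycline, the replicate block, the other table, and leaving out each library. The table of chromosome 15 was not used.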

Additional observations from a re-analysis of the deposited data

Results flagged for a closer look

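Responses of the 5 genes to 24 h of doxycycline differed between some of the lines by the limma test of the difference itself. Between SpenKO and WT the difference was 0.474 for L1cam, 0.341 for Plxna3, 0.331 for Pdzd4, 0.223 for Fgf13 and 0.118 for Il1rapl1. Between SPOCmut and WT it was 0.316 for Pdzd4, 0.138 for Fgf13 and 0.106 for Il1rapl1, and between SPOCmut and SpenKO it was -0.231 for Plxna3. Of all genes, 76.7%, 58.5% and 23.0% passed in these comparisons, in that order, so the counts among the 5 are near the background. Between CIZ1KO and WT no response differed (0.00% of all genes). The Il1rapl1 differences use WT libraries at 0 h that read 0.950 and 0.863, and without the first of them they were 0.0740 and 0.0620.

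At 3 h the single SpenKO library lay above the SpenKO mean at 0 h by 0.0718 for L1cam, 0.0784 for Plxna3 and 0.0115 for Il1rapl1, while both WT libraries at 3 h lay below the WT mean at 0 h. For Pdzd4 and Fgf13 the SpenKO library at 3 h lay below its 0 h mean as in WT, at 0.534 against 0.595 and at 0.488 against 0.517. Without the first WT library at 0 h the WT change at 3 h was 0.0163 for L1cam and 0.00516 for Il1rapl1. This difference in direction was not tested.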

How the results depend on the processing

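Of the alternatives, trended robust moderation and the filter on genes left every count of called genes within 1.5 times of its value in the report, and so did the log2 odds scale and, for WT at 24 h, the fit in the other table. The filter removes Il1rapl1, which has no value there. Fitting the compared groups alone gave 0 of the 5 genes and 2 of all genes at 3 h in WT (from 2 and 60), 0 of all genes in SpenKO (from 2) and 2 of the 5 for SPOCmut against SpenKO (from 1). Benjamini-Yekutieli adjustment gave 1 of the 5 and 38 of all genes at 3 h in WT, 0 of all genes in SpenKO and 34 of all genes for SPOCmut against SpenKO (from 62). With the replicate block, 1 of the 5 was called at 3 h in WT, where Fgf13 was lost (adjusted p = 0.0546), and 0 of all genes in SpenKO, and the block changed no other call of the 5 genes, the SPOCmut clones included.

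Leaving out 1 library at a time, the 5 genes gave 1 to 3 calls at 3 h in WT and 1 to 2 for SPOCmut against SpenKO. Over all genes this gave 0 to 3 calls in SpenKO, 41 to 58 for SPOCmut against SpenKO, 0 to 2 for CIZ1KO against WT in response and 0 to 4 at 0 h, the highest values of the last 2 without the first CIZ1KO library at 0 h. Besides the losses named in the report, L1cam in SPOCmut at 24 h was lost when the compared groups were fitted alone and under Benjamini-Yekutieli adjustment (adjusted p = 0.0826 and 0.156). Benjamini-Yekutieli adjustment also ended the calls of Fgf13 at 3 h in WT (adjusted p = 0.114) and of the Il1rapl1 difference in response from WT in SpenKO and in SPOCmut (adjusted p = 0.0572 and 0.0824). The gene gained for SPOCmut against SpenKO in the fit of the compared groups was Fgf13 (adjusted p = 0.0377). The cause of these changes was not tested.

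The direction of 41 single values turned, none of them called. On log2 odds these were Il1rapl1 in CIZ1KO at 24 h (0.285), Plxna3 in CIZ1KO against WT (-0.0744) and L1cam at 0 h in CIZ1KO against WT (-0.000171). With the replicate block they were Il1rapl1 at 0 h in SPOCmut against WT (-0.0136), and L1cam and Pdzd4 at 0 h in CIZ1KO against WT (-0.0620 and 0.00295). With single libraries left out, the values at 3 h in WT ran from -0.136 to 0.0163 for L1cam and from -0.0818 to 0.00516 for Il1rapl1. In SpenKO at 24 h they ran from -0.00188 to 0.0116 for Pdzd4 and from -0.00649 to 0.0198 for Il1rapl1. Il1rapl1 ran from -0.0144 to 0.00261 in SPOCmut, from -0.0252 to 0.00113 for SPOCmut against SpenKO and from -0.0400 to 0.0369 in CIZ1KO. For CIZ1KO against WT in response the ranges were -0.0478 to 0.105 for L1cam, -0.0344 to 0.0352 for Plxna3 and -0.0482 to 0.01002 for Fgf13. At 0 h in SpenKO against WT they were -0.136 to 0.0165 for L1cam, -0.00957 to 0.0220 for Pdzd4 and -0.00791 to 0.0503 for Fgf13. At 0 h in SPOCmut against WT they were -0.0780 to 0.0749 for L1cam, -0.0491 to 0.00655 for Plxna3, -0.00470 to 0.0269 for Pdzd4 and -0.0272 to 0.0598 for Il1rapl1. At 0 h in CIZ1KO against WT they were -0.0764 to 0.0765 for L1cam, -0.0528 to 0.00286 for Plxna3 and -0.0213 to 0.0121 for Pdzd4. Depth is unknown, so the spread between libraries is the only measure of precision, and it is widest for L1cam.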
